A study of Homo sapiens with 6 samples.

Results

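The effect of RARγi-1 on the transcriptome of Panc-1 cells was read from 1 library of treated cells and 1 library of control cells. Panc-1 is an established human cell line of pancreatic ductal adenocarcinoma. RARγi-1 (LY2955303) is a small-molecule antagonist of retinoic acid receptor γ (RARγ), and the treated cells were exposed to it for 24 h. The control cells are labelled only as control, and neither their vehicle nor the dose of RARγi-1 used for the RNA-seq is stated. The series holds 6 libraries in all, from PK-1 and Panc-1 cells as control or with RARγi-1 or RARγi-2 (MM11253), another RARγ antagonist. PK-1 is also an established cell line of pancreatic ductal adenocarcinoma. Each condition is 1 library of 1 cell line. No difference could therefore be checked against replicates, and no p-value was computed.

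All entries that lay above the floor of the deposited values in at least 1 of the 2 libraries were taken as members, 14004 of 53826 entries. The values are TPM, a transcript abundance scaled for transcript length and to the same total in each library. Everything under 1 TPM had been raised to 1 TPM, and this level is called the floor. The 39822 entries left out were at the floor in both libraries, while the lowest member reached 1.0007 TPM and 166 members stayed under 1.1 TPM. TPM values keep no read numbers, so the depth is unknown. Among markers of the cell types such a culture could hold, 8 of 9 ductal epithelial markers lay above the floor, CDH1 being the exception, and their summed level was 8573 TPM in the control and 1943 TPM with RARγi-1. Nearly all of it came from KRT8, KRT18 and KRT19, and the other 5 summed to 172.9 and 181.5 TPM. All 4 endothelial and all 5 acinar markers were at the floor. Of 6 fibroblast markers only COL1A1 and of 6 leukocyte markers only CD14, CD68 and LYZ were above it, and the summed leukocyte level was 249.7 TPM in the control and 282.9 TPM with RARγi-1, nearly all from CD68.

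Retinoic acid receptors are nuclear receptors that bind retinoic acid made from vitamin A. They sit on DNA as partners of the retinoid X receptors, hold corepressors when no ligand is bound and take up coactivators when it is. Retinoic acid is brought to them by CRABP2, while FABP5 is known to carry it to another nuclear receptor, PPARδ. It is made by ALDH1A enzymes and broken down by CYP26 enzymes. RARγ is the form known best from skin and other squamous epithelia. The study made the comparison to look for transcripts that change with the block of this receptor and bear on proliferation. Cells pass from G1 into S phase when cyclin-dependent kinases release the E2F factors, which drive the genes of DNA synthesis. The unfolded protein response and the integrated stress response are the programs by which cells react to misfolded protein in the endoplasmic reticulum (ER) or to a shortage of amino acids, and ATF4, XBP1 and ATF6 are their transcription factors.

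Fold changes are given as log2 of (TPM + 1) with RARγi-1 over (TPM + 1) in the control. In what follows, "rose" and "fell" are used only for more than 2-fold on this scale, a size and not a test. With RARγi-1, 1036 members rose and 845 fell, that is 7.40% and 6.03% of the 14004. These shares are the background for the counts of every gene list below. More than 4-fold, 142 were higher and 123 lower, and more than 8-fold 24 were higher and 17 lower. The middle of the distribution hardly moved. The median log2 fold change was 0.09, and 9378 members (67.0%) stayed within 1.5-fold of the control. With this pseudocount a transcript needs more than 3 TPM in 1 library to pass 2-fold, and the 1981 members under that level could not. Above it the share that rose lay between 7.86% and 10.8% in every class of expression up to the 148 members of 1000 TPM and more, and the share that fell between 6.12% and 8.78%. Of the members that rose, 84 were at the floor in the control, and of those that fell, 60 were at the floor with RARγi-1.

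**Figure D1:**
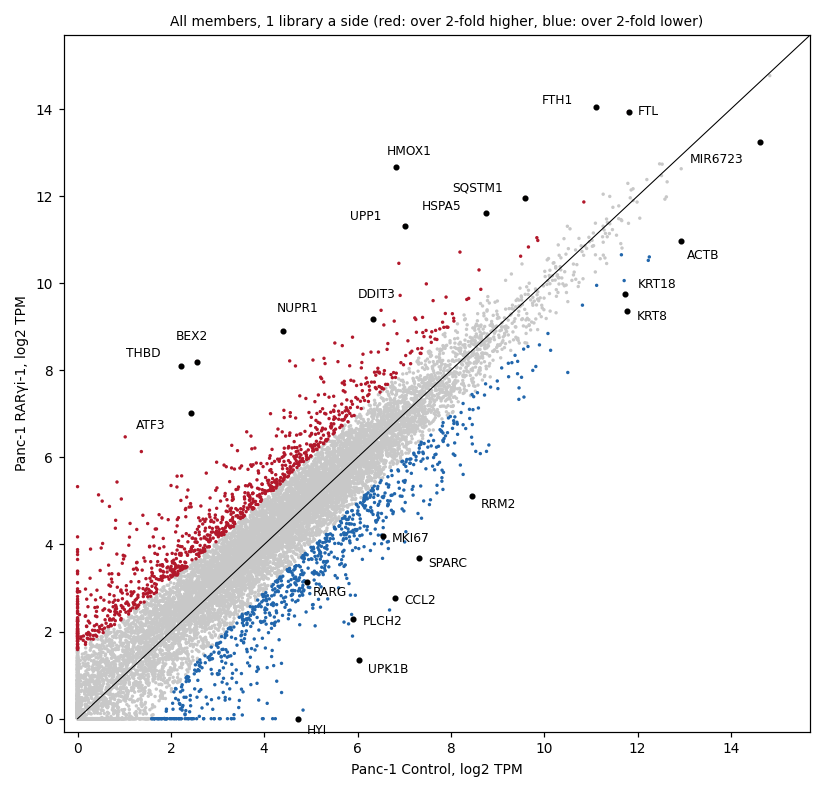
Each point is 1 of the 14004 members, with its log2 TPM in the Panc-1 Control library on the x axis and in the Panc-1 RARγi-1 library on the y axis, where 0 is the floor; red marks the 1036 members more than 2-fold higher, blue the 845 more than 2-fold lower, and black the genes named on the plot. HMOX1 and FTH1 stand far above the line of equal levels, and ACTB, KRT8 and RRM2 below it.

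The members that moved took a different part of all transcripts in the 2 libraries, in a direction set by how they were chosen. The members that rose made up 3.76% of all transcripts in the control and 13.7% with RARγi-1. HMOX1, FTH1 and FTL alone gave 0.592% and 3.91%. Those that fell made up 12.6% in the control and 4.30% with RARγi-1, or 125812 and 43044 TPM. Of this MIR6723, an entry that resembles mitochondrial DNA, alone gave 25351 and 9737 TPM. In the protein-coding class 844 of 12186 members rose and 790 fell. Long non-coding RNAs leaned to one side, with 105 of 1048 that rose and 34 that fell, as did transcribed pseudogenes with 47 of 365 against 7. Protein-coding members that rose had a median genomic span of 24.8 kb and those that fell of 24.1 kb, beside 29.0 kb over all protein-coding members. The GC content of their promoter windows was 66.5% and 65.3%, beside 65.7% over all.

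Promoter sequences are shown for genes of some of the groups that moved together, because short sequence elements known from each of these groups recur in them. The windows are those of RefSeq on GRCh38.p14, from 250 bases before to 50 bases after the transcription start, 1 window per gene; 10849 members had one, of 27305 genes in all. Letters were searched on both strands. The stretches below lie before the start, are written 5′ to 3′ on the strand of the gene, and carry the element in capitals. The first set holds E2F sites, searched as TTTCCCGC or TTTGGCGC, in genes of DNA replication and its control. PCNA lies at chr20:5126623-5126722, E2F1 at chr20:33686386-33686485 and MCM6 at chr2:135876504-135876623, all on the minus strand.
PCNA: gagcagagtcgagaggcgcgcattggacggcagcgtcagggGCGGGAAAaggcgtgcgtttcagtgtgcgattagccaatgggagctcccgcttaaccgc
E2F1: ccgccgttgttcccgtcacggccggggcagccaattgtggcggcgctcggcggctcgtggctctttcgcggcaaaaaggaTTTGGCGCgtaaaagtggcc
MCM6: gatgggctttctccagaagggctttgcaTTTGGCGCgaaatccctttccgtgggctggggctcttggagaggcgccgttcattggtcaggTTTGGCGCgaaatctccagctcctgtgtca

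Of 44 replication genes with a window, 16 (36.4%) held an E2F site, beside 3.72% of all members with a window and 2.31% of all windows. Among all members that fell the share was 7.53%, and among those that rose 3.47%. The second set holds the CHR element, TTTGAA, in genes of mitosis. MKI67 lies at chr10:128126424-128126523 on the minus strand, PLK1 at chr16:23678789-23678888 and CCNB2 at chr15:59105046-59105145 on the plus strand.
MKI67: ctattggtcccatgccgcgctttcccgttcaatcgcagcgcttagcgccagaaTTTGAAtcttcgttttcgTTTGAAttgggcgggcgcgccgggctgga
PLK1: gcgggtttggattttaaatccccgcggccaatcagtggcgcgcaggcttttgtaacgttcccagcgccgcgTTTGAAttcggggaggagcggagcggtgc
CCNB2: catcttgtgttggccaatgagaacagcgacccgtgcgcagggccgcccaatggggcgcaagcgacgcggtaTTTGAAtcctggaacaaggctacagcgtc

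A CHR element was found in 29 of 41 mitosis genes with a window (70.7%), against 9.27% of all members and 15.4% of all windows. It was in 17.5% of the members that fell and in 8.35% of those that rose. The third set holds the ER stress element, CCAAT and CCACG with 9 bases between them, in the chaperone HSPA5 and in XBP1. HSPA5 lies at chr9:125241364-125241463 and XBP1 at chr22:28800570-28800669, both on the minus strand. The element overlaps the CCAAT box, which 36.7% of all members hold.
HSPA5: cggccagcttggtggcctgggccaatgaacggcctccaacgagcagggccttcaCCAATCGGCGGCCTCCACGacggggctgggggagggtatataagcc
XBP1: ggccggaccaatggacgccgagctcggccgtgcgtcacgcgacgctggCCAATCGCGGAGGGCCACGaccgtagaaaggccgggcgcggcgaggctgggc

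The ER stress element was in 7 of 31 genes of ER folding and degradation with a window (22.6%), and in 14 of the 10849 members (0.129%). Of these 7 genes HSPA5 and XBP1 rose, while HSP90B1, ERO1B, CANX, CRELD2 and CALR stayed within 2-fold. The fourth set holds the composite element of C/EBP and ATF factors, TGATGNAA, in targets of ATF4. ASNS lies at chr7:97872429-97872528 on the minus strand, CHAC1 at chr15:40953231-40953330 and ATF3 at chr1:212565167-212565266 on the plus strand; in CHAC1 the element reads on the other strand.
ASNS: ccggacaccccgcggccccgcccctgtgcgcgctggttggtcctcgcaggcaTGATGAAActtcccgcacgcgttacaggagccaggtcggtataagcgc
CHAC1: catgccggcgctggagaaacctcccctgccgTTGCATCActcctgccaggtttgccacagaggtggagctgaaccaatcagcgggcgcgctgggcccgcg
ATF3: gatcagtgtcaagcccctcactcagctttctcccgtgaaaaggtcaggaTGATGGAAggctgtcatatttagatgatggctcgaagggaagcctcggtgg

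The composite element was in 4 of 17 ATF4 and CHOP effector genes with a window (23.5%) and in 6 of 16 cytosolic tRNA synthetase genes (37.5%), beside 1.61% of all members and 3.67% of all windows. Among all members that rose the share was 3.08%, and among those that fell 2.15%. Of the effectors above the floor 17 of 20 rose, and of the synthetases 5 of 20. The last set holds the CArG box, the site of serum response factor, in ACTG1 at chr17:81512840-81512939 on the minus strand and CNN2 at chr19:1026468-1026567 on the plus strand.
ACTG1: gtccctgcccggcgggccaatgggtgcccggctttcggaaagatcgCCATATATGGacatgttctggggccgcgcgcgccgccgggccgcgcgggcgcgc
CNN2: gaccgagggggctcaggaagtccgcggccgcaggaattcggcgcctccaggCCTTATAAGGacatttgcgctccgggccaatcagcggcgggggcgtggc

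A CArG box was in 6 of 17 actin cytoskeleton genes with a window (35.3%) and in 0.977% of all members. It was in 1.54% of the members that fell and in 1.67% of those that rose. These matches describe the letters of the windows and were not tested. The retinoic acid response element with 5 bases between its repeats was in 1 of the 778 windows of members that rose, in 0 of the 651 windows of members that fell and in 22 of all 27305. Further elements were counted in the same sets. The antioxidant response element, TGACNNNGC, was in 17.1% of the members that rose, 13.4% of those that fell and 15.4% of all members. The AP-1 site, TGANTCA, was in 6.04%, 4.30% and 4.42%, the cyclic AMP response element, TGACGTCA, in 3.34%, 2.61% and 3.34%, and the E-box of lysosomal genes, TCACGTGA, in 1.93%, 0.768% and 1.91%. In the lysosome and autophagy list that E-box was in 4 of 22 windows (18.2%). The antioxidant response element was in 4 of 21 windows of the NRF2 and antioxidant list (19.0%), near the share of all members. It was in 10 of 22 windows of the lysosome and autophagy list (45.5%). The AP-1 site was in 1 of 15 windows of the AP-1 and immediate-early list (6.67%). A retinoic acid response element with 2 bases between its repeats was in 0 of the 778 and 0 of the 651 windows.

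The retinoid pathway was described first, since RARγ was the target. Of the 29 genes listed, 19 lay above the floor; 5 fell, 1 rose and 13 stayed within 2-fold, with a median of -0.25 beside 0.09 over all members. RARG, the gene of the blocked receptor, was at 30.1 TPM in the control and at 8.83 TPM with RARγi-1, a log2 fold change of -1.66. RARA, which encodes RARα, was at 11.5 and 8.20 TPM and stayed within 2-fold, and RARB was at the floor in all 6 libraries. RARG thus stood above RARA in the control library and near it in the treated one. Among the carriers, CRABP2, which hands retinoic acid to the receptors, fell from 231 to 86.4 TPM (-1.41), while FABP5 was at 234 and 179.8 TPM (-0.38). Among the enzymes, DHRS3, a retinaldehyde reductase that retinoic acid is known to induce, fell from 26.4 to 6.58 TPM (-1.86). ALDH1A3, which makes retinoic acid, fell from 55.6 to 20.5 TPM (-1.40). TGM2, a transglutaminase known as a retinoic acid target, fell from 66.2 to 18.4 TPM (-1.79). The 1 gene that rose was CYP26C1, from 1.13 to 3.37 TPM (1.04), near the floor. The partners and cofactors moved less: RXRA was at 15.8 and 13.7 TPM, RXRB at 27.1 and 33.4 TPM and NCOR1 at 22.6 and 23.4 TPM. Of 12 genes that the study lists as specific to the esophagus with protein in pancreatic cancer, 4 lay above the floor, of which CRABP2 and GJB2, a gap junction protein, fell and ERO1A and ECM1 stayed within 2-fold; KRT13 had no value above the floor in either Panc-1 library.

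Among genes of DNA synthesis and cell division, most of those of mitosis and replication fell. In the mitosis list 42 of 47 genes fell (89.4%), 5 stayed within 2-fold and none rose; its median was -1.50 and the whole list lay below 0. In the list of replication licensing and fork genes 29 of 51 fell (56.9%) and none rose, with a median of -1.15. Among 16 genes of nucleotide supply 7 fell and none rose, with a median of -0.78. The background of members that fell was 6.03%. The study chose genes of the G1-S transition and of DNA synthesis for display from these same libraries, so that these lists are not independent evidence of the direction.

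RRM2, the regulated subunit of ribonucleotide reductase that makes deoxynucleotides, fell from 350.3 to 34.9 TPM (-3.29). TYMS, thymidylate synthase, fell from 397 to 68.0 TPM (-2.53) and TK1, thymidine kinase, from 224 to 43.8 TPM (-2.33). The enzymes of purine and pyrimidine synthesis that act before the deoxynucleotide step moved less. IMPDH2 was at 322 and 318 TPM, GMPS at 165 and 142 TPM and CAD at 53.5 and 39.8 TPM. RRM2B, the reductase subunit that p53 is known to control, was at 11 and 14.4 TPM.

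All 6 subunits of the MCM helicase that opens DNA at origins fell, MCM4 most (101 to 15 TPM, -2.67) and MCM5 least (147 to 57.1 TPM, -1.35). PCNA, the sliding clamp of the replication fork, fell from 307 to 48.8 TPM (-2.63), and MCM10, a loading factor, from 20.0 to 3.51 TPM (-2.22). The origin recognition complex did not move as a unit. ORC1 fell from 23.1 to 5.59 TPM (-1.87), while ORC2, ORC3, ORC4 and ORC5 stayed within 2-fold, ORC5 being the highest of the list at 28.9 and 47.2 TPM (0.69). CDC6, which loads the helicase together with CDT1, was at 42.8 and 50.0 TPM (0.22), whereas CDT1 fell from 41.8 to 13.6 TPM (-1.55).

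KIF20A, a kinesin of cytokinesis, fell from 58.6 to 5.25 TPM (-3.25) and ANLN, the anillin of the cleavage furrow, from 166 to 24.3 TPM (-2.72). MKI67, the Ki-67 proliferation marker, fell from 93.5 to 18.4 TPM (-2.28). CCNB1, the main mitotic cyclin, fell from 339 to 119 TPM (-1.50) and its kinase CDK1 from 104 to 32.0 TPM (-1.67). The 5 members within 2-fold were CDC20 (-0.99), KIF2C (-0.96), CDC25C (-0.37), CDC25B (-0.27) and SKA1 (-0.25). In the list of double-strand break and crosslink repair 6 of 37 genes fell, or 12 without a pseudocount, with a median of -0.66 and RAD54L lowest (30.8 to 8.10 TPM, -1.80). ATM and ATR, the kinases that sense damage, were at 10.8 and 12.3 TPM and at 14.3 and 12.7 TPM.

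Among 25 genes of G1-S control 11 fell (44%), 2 rose (8%) and 12 stayed within 2-fold. Of all members 6.03% fell and 7.40% rose. E2F1, which drives S phase genes, fell from 93.9 to 17.4 TPM (-2.36). E2F2 and E2F8 went from 10.2 and 9.81 TPM to the floor, so that their folds are lower limits. E2F7, known as a repressor among the E2F factors, rose from 7.56 to 22.8 TPM (1.48). E2F4, the most abundant E2F in the control, was at 103 and 101 TPM. CCND1, cyclin D1, fell from 205 to 67.3 TPM (-1.59), while CCND2, cyclin D2, came up from the floor to 6.71 TPM. The kinases parted. CDK4, a partner of the D cyclins, was at 293 and 295 TPM (0.01) and CDK6 at 23.1 and 14.3 TPM (-0.65), but CDK2, the partner of cyclins E and A, fell from 94.7 to 34.5 TPM (-1.43). RB1, the brake on E2F, was at 16.5 and 16.8 TPM.

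The inhibitors of these kinases moved in both directions, with 2 of 6 that rose and 2 that fell. CDKN1A, which encodes p21, rose from 86.1 to 249.8 TPM (1.53) and CDKN1C, p57, from 4.20 to 11.9 TPM (1.31). CDKN1B, p27, was at 24.3 and 41.4 TPM (0.74). CDKN2C, p18, fell from 62.0 to 7.13 TPM (-2.95) and CDKN2D, p19, from 11.7 to 4.86 TPM (-1.11). CDKN2A and CDKN2B were at the floor in both libraries. The other p53 targets did not share the size of the CDKN1A change. Of 19 on that list 2 rose (10.5%, beside 7.40% of all members), TP53INP1 and PHLDA3, none fell and the median was 0.24. MDM2 was at 22.6 and 26.9 TPM and BAX at 112 and 120.3 TPM.

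Effectors of the stress response through ATF4 and CHOP had the highest median of all lists. Of 20 effectors above the floor 17 rose (85.0%), beside a background of 7.40%, and none fell; the median was 2.26 and the summed level went from 1178 to 6209 TPM. The study displayed genes of this group, of the XBP1 chaperones and of the NRF2 pathway from these libraries, and the same caution holds for them. ATF4 itself, which is known to be controlled mainly at translation, was at 312 and 618 TPM (0.99), just inside 2-fold. DDIT3, which encodes CHOP, rose from 80.8 to 575 TPM (2.82) and ATF3, a factor induced by ATF4, from 5.38 to 129 TPM (4.35). NUPR1, a stress-induced chromatin protein, rose from 21.1 to 480.2 TPM (4.44). SESN2 and DDIT4, which restrain the growth kinase mTORC1, rose from 23.4 to 297 TPM (3.61) and from 118 to 1406 TPM (3.56). PPP1R15A, which ends the translational block, rose from 33.0 to 301 TPM (3.15), and TRIB3, a pseudokinase that binds ATF4, from 45.7 to 395 TPM (3.09). Beside ATF4 the genes within 2-fold were CBS (0.96) and BBC3, which encodes the cell death protein PUMA (6.74 and 11.9 TPM, 0.74).

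The amino acid genes controlled by ATF4 moved in part. Of 16 enzymes of serine, proline and one-carbon metabolism 7 rose and 2 fell. ASNS, asparagine synthetase, rose from 149.8 to 589.7 TPM (1.97), GOT1, an aspartate aminotransferase, from 110.4 to 560.4 TPM (2.33) and ALDH1L2, a mitochondrial folate enzyme, from 2.16 to 18.0 TPM (2.59). Folate enzymes of the mitochondria and of the cytosol went apart: MTHFD2 and MTHFD1L in mitochondria rose (217 to 495 TPM and 38.6 to 91.1 TPM), whereas MTHFD1 and SHMT1 in the cytosol fell (117 to 52.5 TPM and 29.4 to 13.7 TPM). Of 20 cytosolic tRNA synthetases 5 rose, WARS most (87.3 to 342 TPM, 1.96), and QARS was lowest (109 to 58.8 TPM, -0.88). Of 14 amino acid transporters 4 rose and none fell. SLC7A11, the cystine carrier, rose from 5.15 to 38.1 TPM (2.67) and SLC6A9, a glycine carrier, from 5.25 to 29.0 TPM (2.27).

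In the ER list 15 of 34 genes rose (44.1%) and none fell, with a median of 0.94. HSPA5, the BiP chaperone, rose from 434 to 3123 TPM (2.84) and was among the 10 largest gains of TPM in the comparison. DNAJB9, a cochaperone of BiP, rose from 9.88 to 77.6 TPM (2.85) and HERPUD1, of ER-associated degradation, from 31.1 to 131 TPM (2.04). The transcription factors XBP1 (58.0 to 219 TPM, 1.90) and ATF6 (12.9 to 32.3 TPM, 1.26) rose as well. Other abundant ER chaperones stayed within 2-fold, as HSP90B1 was at 629 and 1186 TPM (0.91), PDIA4 at 395 and 472 TPM (0.25) and CALR at 1310 and 1266 TPM (-0.05). The chaperones of the cytosol stood apart from those of the ER. None of 23 rose or fell, and the median was 0.04; HSPA1A was at 307 and 328 TPM, HSP90AA1 at 866 and 819 TPM and HSPA8 at 2618 and 2697 TPM.

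**Figure D2:**
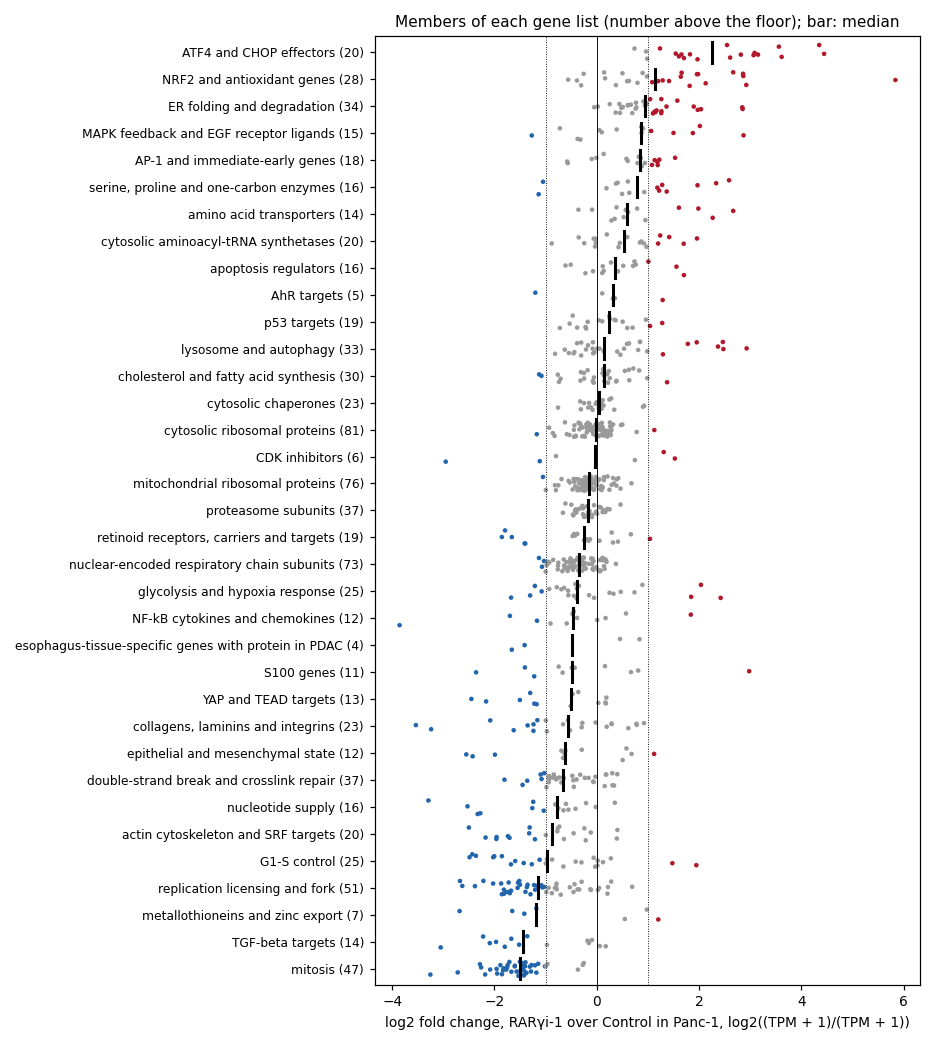
Each point is a gene of the list named on the y axis, placed on the x axis by its log2 fold change, RARγi-1 over Control in Panc-1; the number in brackets counts the members above the floor, the black bar is their median, the dotted lines mark 2-fold and the vertical offset of the points carries no value. The medians run from -1.50 for mitosis to 2.26 for ATF4 and CHOP effectors, with cytosolic chaperones at 0.04.

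Of 28 NRF2 and antioxidant genes above the floor 15 rose (53.6%) and none fell, with a median of 1.14. HMOX1, heme oxygenase 1, which releases iron from heme, had the highest fold of all members with at least 10 TPM, from 113 to 6518 TPM (5.84). FTH1 and FTL, the heavy and light chains of the iron store ferritin, rose from 2225 to 16876 TPM (2.92) and from 3585 to 15681 TPM (2.13) and were the 2 largest gains. Ferritin genes have near-identical processed copies in the genome, and how reads shared with them were counted is not given in the sources used here. Together HMOX1, FTH1 and FTL made up 0.592% of all transcripts in the control and 3.91% with RARγi-1. BLVRB, biliverdin reductase, rose from 67.7 to 266 TPM (1.96). SRXN1, sulfiredoxin, rose from 90.8 to 665 TPM (2.86), GCLC and GCLM, the enzyme of glutathione synthesis, from 22.0 to 89.9 TPM (1.98) and from 17.9 to 58.1 TPM (1.64). NQO1, a quinone reductase often used as the NRF2 marker, rose from 193 to 473 TPM (1.29). NFE2L2, which encodes NRF2 and is controlled mainly through its protein, was at 68.1 and 96.8 TPM (0.50). GPX4, which detoxifies lipid peroxides, was lowest at 509.9 and 346 TPM (-0.56).

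Metallothioneins, which bind zinc and copper, did not follow the antioxidant genes. Of 7 genes in that list, which also holds the zinc exporter SLC30A1, 4 fell and 1 rose. MT2A fell from 3360 to 1068 TPM (-1.65), MT1A from 131 to 19.6 TPM (-2.68), MT1E from 298 to 131 TPM (-1.18) and MT1M from 20.6 to 7.08 TPM (-1.42), while MT1F rose from 3.47 to 9.30 TPM (1.20) and MT1X was at 97.4 and 193 TPM (0.98). These genes are close copies of each other, so that reads can be shared between them.

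Lysosome and autophagy genes rose in part, with 7 of 33 (21.2%, beside 7.40% of all members) and none that fell. SQSTM1, the p62 receptor that carries cargo into autophagosomes and an NRF2 target, rose from 773 to 4003 TPM (2.37). MAP1LC3B, the LC3 protein of the autophagosome membrane, rose from 94.6 to 527 TPM (2.47), and WIPI1, which acts early in its formation, from 9.11 to 55.2 TPM (2.48). CTSL, a cathepsin, rose from 100.4 to 392 TPM (1.95). The lysosome's membrane and pump did not share this: LAMP1 was at 127 and 113 TPM, LAMP2 at 48.4 and 36.8 TPM and ATP6V1A at 35.5 and 22.7 TPM, against ATP6V0D2, which came up from the floor to 14.2 TPM. Among 30 genes of cholesterol and fatty acid synthesis 1 rose (3.33%) and 2 fell (6.67%), beside 7.40% and 6.03% of all members, with a median of 0.13. SREBF2, the factor of sterol synthesis, rose from 14.5 to 39.2 TPM (1.37).

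Of 20 genes of the actin cytoskeleton 9 fell (45.0%, beside 6.03% of all members), 11 stayed within 2-fold and none rose. Their median was -0.88, and their summed level went from 20272 to 7481 TPM. ACTB, β-actin, fell from 7809 to 2003 TPM (-1.96) and ACTG1, γ-actin, from 4808 to 1473 TPM (-1.71). ACTB and ACTG1 have many processed copies, and how shared reads were counted is not given in the sources used here. β-actin was the reference gene of the study's quantitative PCR, which for the antagonists it reports in PK-1 cells and organoids, not in Panc-1 cells. The study also lists a β-actin antibody for its Western blots, and those include Panc-1 cells treated with the antagonists. The values here are of RNA and do not give the level of β-actin protein. In PK-1 cells ACTB was at 6268 TPM in the control and 5702 TPM with RARγi-1 (-0.14). MYL9, a light chain of non-muscle myosin, fell from 189 to 32.6 TPM (-2.50), TAGLN2, a transgelin, from 758 to 167 TPM (-2.17) and CNN2, a calponin, from 265 to 67.5 TPM (-1.96). SRF, the factor of the CArG box shown above, was at 51.6 and 43.5 TPM, and TPM4 at 251 and 216 TPM.

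Genes controlled by YAP and TEAD, which respond to cell shape, fell in 6 of 13 cases (46.2%, beside 6.03% of all members), and none rose. CTGF (CCN2) and CYR61 (CCN1), the matricellular proteins used as readouts of YAP, fell from 229 to 50.4 TPM (-2.16) and from 689 to 243 TPM (-1.50), and AMOTL2, a feedback inhibitor, from 48.3 to 8.01 TPM (-2.45). YAP1 itself was at 64.5 and 73.1 TPM. Of 14 TGF-β targets 8 fell and none rose, with a median of -1.44. ID1, ID2 and ID3, which block bHLH factors and follow BMP signals, fell from 732 to 229 TPM (-1.67), from 25.1 to 5.13 TPM (-2.09) and from 262 to 102 TPM (-1.36). SMAD6, an inhibitor of BMP signaling, went from 15.6 TPM to the floor.

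Matrix genes fell in 8 of 23 cases and none rose, with a median of -0.56. SPARC, a matrix glycoprotein, fell from 160.4 to 12.9 TPM (-3.54), COL1A1, the chain of collagen I, from 52.4 to 4.65 TPM (-3.24) and THBS1, thrombospondin 1, from 16.3 to 3.08 TPM (-2.08). Integrins were at similar levels in both libraries or went either way: ITGB1 was at 509.7 and 623 TPM, ITGA2 at 65.5 and 113 TPM, and ITGB5 fell from 244 to 94.8 TPM (-1.35). Of 4 simple keratins of ductal epithelium 3 fell. KRT19 fell from 1454 to 247 TPM (-2.55), KRT8 from 3530 to 656 TPM (-2.43) and KRT18 from 3415 to 859 TPM (-1.99), while KRT7 was at 4.19 and 2.40 TPM (-0.61). KRT8, KRT18 and KRT19 summed to 0.840% of all transcripts in the control and 0.176% with RARγi-1. VIM, vimentin, the filament protein of mesenchymal cells, was at 6291 and 4049 TPM (-0.64), and OCLN, the tight junction protein occludin, rose from 14.1 to 31.8 TPM (1.12).

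**Figure D3:**
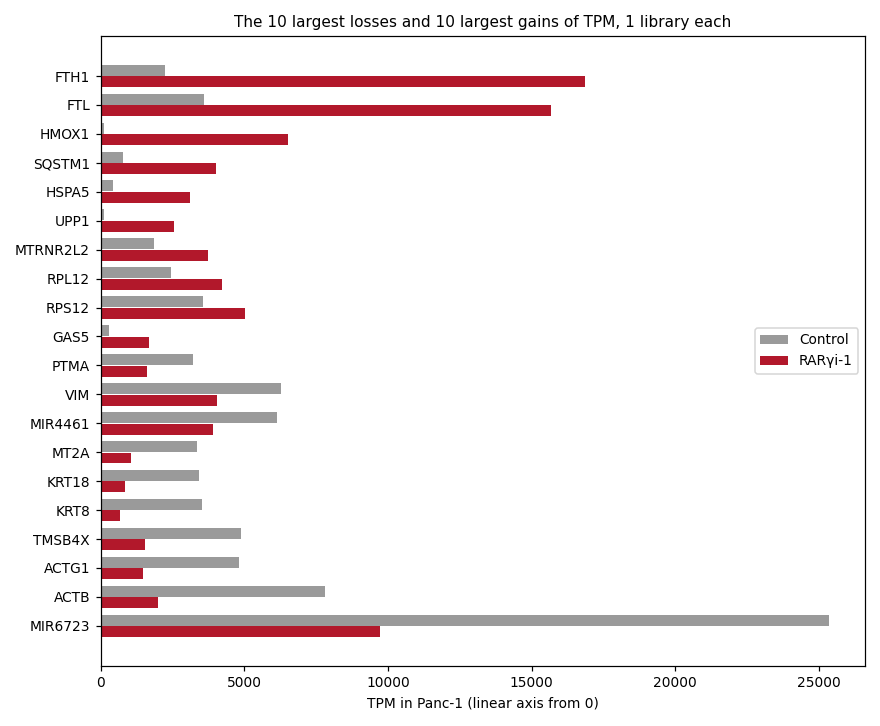
Bars give the TPM in Panc-1 Control (gray) and Panc-1 RARγi-1 (red), on a linear axis from 0, for the 10 entries with the largest loss and the 10 with the largest gain of TPM. FTH1 went from 2225 to 16876 TPM and ACTB from 7809 to 2003 TPM; MIR6723 and MTRNR2L2 are entries that resemble mitochondrial DNA.

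Among signaling genes, 6 of 18 AP-1 and immediate-early genes rose (33.3%) and none fell. Of 15 genes of MAPK feedback and EGF receptor ligands 5 rose (33.3%) and 1 fell (6.67%). DUSP5, a phosphatase that turns off ERK, rose from 51.0 to 379 TPM (2.87), ETV5, a factor induced by ERK, from 51.0 to 209 TPM (2.02) and HBEGF, a ligand of the EGF receptor, from 32.2 to 121 TPM (1.88). DUSP6 and SPRY2, further ERK feedback genes, stayed within 2-fold, and SPRY1 fell from 8.69 to 3.02 TPM (-1.27). FOSL1, the most abundant AP-1 subunit, was at 619 and 616 TPM (-0.01), and MYC at 78.4 and 73.2 TPM (-0.10). Among 12 NF-κB cytokines and chemokines 3 fell (25%) and 1 rose (8.33%), beside 6.03% and 7.40% of all members. CCL2, the monocyte chemokine, fell from 112 to 6.79 TPM (-3.85) and CXCL1, a neutrophil chemokine, from 18.6 to 5.04 TPM (-1.70), whereas LIF, a cytokine of the IL-6 family, rose from 38.1 to 139 TPM (1.84).

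Genes of glycolysis and hypoxia went both ways, with 3 of 25 that rose (12%) and 4 that fell (16%). Over all members 7.40% rose and 6.03% fell. VEGFA, the angiogenic factor, rose from 29.7 to 164 TPM (2.42), NDRG1, a stress gene, from 13.1 to 56.8 TPM (2.04) and HK2, hexokinase 2, from 8.91 to 34.6 TPM (1.85). LDHA, lactate dehydrogenase A, fell from 1127 to 352 TPM (-1.68) and ADM, adrenomedullin, also known as a hypoxia target, from 191 to 76.9 TPM (-1.30). Most enzymes of glycolysis lay between these without passing 2-fold. In the apoptosis list 3 of 16 rose (18.75%) and none fell. TNFRSF10B, the DR5 death receptor and a target of CHOP, rose from 31.9 to 106 TPM (1.70). PMAIP1 (NOXA) rose from 4.60 to 15.5 TPM (1.56) and BCL2L11 (BIM) from 5.08 to 11.2 TPM (1.01). MCL1 and BCL2L1, which protect from cell death, were at 137 and 183 TPM and at 219 and 359 TPM. Of 11 S100 genes 3 fell (27.3%) and 1 rose (9.09%), S100A4 lowest (295 to 56.7 TPM, -2.36) and S100P highest (1.75 to 20.7 TPM, 2.98). Of 5 AhR targets CYP1B1 fell from 60.2 to 25.6 TPM (-1.20) and NQO1 rose, each 20% of the list.

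Few genes of the large housekeeping complexes passed 2-fold. Of 81 cytosolic ribosomal proteins 1 rose, RPL22L1, and 1 fell, RPL7A (2232 to 989.7 TPM, -1.17), with a median of -0.02. Of 76 mitochondrial ribosomal proteins MRPS34 alone fell, with a median of -0.14, and none of 37 proteasome subunits rose or fell (-0.17). Of 73 respiratory chain subunits encoded in the nucleus 3 fell (4.11%, beside 6.03% of all members), COX7B lowest (634 to 289 TPM, -1.13), and none rose. Their median was -0.35, and their summed level went from 26922 to 20657 TPM. Below 0 lay 45 of 81 cytosolic and 57 of 76 mitochondrial ribosomal proteins, 27 of 37 proteasome subunits and 60 of 73 respiratory chain subunits.

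The 15 highest and 15 lowest folds among members with at least 10 TPM in 1 library held genes outside these lists. Beside HMOX1, NUPR1, ATF3, SESN2 and DDIT4 the highest were THBD, thrombomodulin, a cofactor of anticoagulation (4.64 to 275 TPM, 5.61), and BEX2 and BEX4, small adaptor proteins encoded on the X chromosome (5.88 to 294 TPM, 5.42, and 2.03 to 88.8 TPM, 4.89). NGFR, the p75 neurotrophin receptor, came up from the floor to 40.2 TPM. UPP1, uridine phosphorylase, rose from 129 to 2560 TPM (4.30) and so was high in mass as well as in fold. LAMP3, a lysosomal protein induced by the unfolded protein response, rose from 2.58 to 70.2 TPM (4.31). FAM129A (NIBAN1), an ER stress gene, rose from 1.80 to 43.3 TPM (3.98). RAB39B, a small GTPase, rose from 1.37 to 35.3 TPM (3.94), TMIE, a protein of hair cell channels, from 1.44 to 31.9 TPM (3.75) and CLGN, an ER chaperone known from testis, from 1.92 to 33.0 TPM (3.54).

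The lowest folds were of UPK1B, a uroplakin of urothelium (65.1 to 2.53 TPM, -4.23), HAPLN3, a link protein of hyaluronan (103 to 5.64 TPM, -3.97), and CCL2. LFNG, a sugar transferase that modifies Notch, fell from 28.5 to 1.15 TPM (-3.78), RASL11A, a small GTPase, from 59.4 to 3.72 TPM (-3.68) and CACNG4, a channel subunit, from 56.0 to 4.52 TPM (-3.37). HYI, FAM111B and NRGN went from 26.4, 18.9 and 18.1 TPM to the floor. FAM111B is a protease of replicating cells, and RRM2 and KIF20A were described above. PLCH2, a phospholipase C, fell from 60.1 to 4.86 TPM (-3.38), and KRT80, a type II keratin, from 20.7 to 1.52 TPM (-3.11). SPARC and COL1A1 made up the rest.

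**Figure D4:**
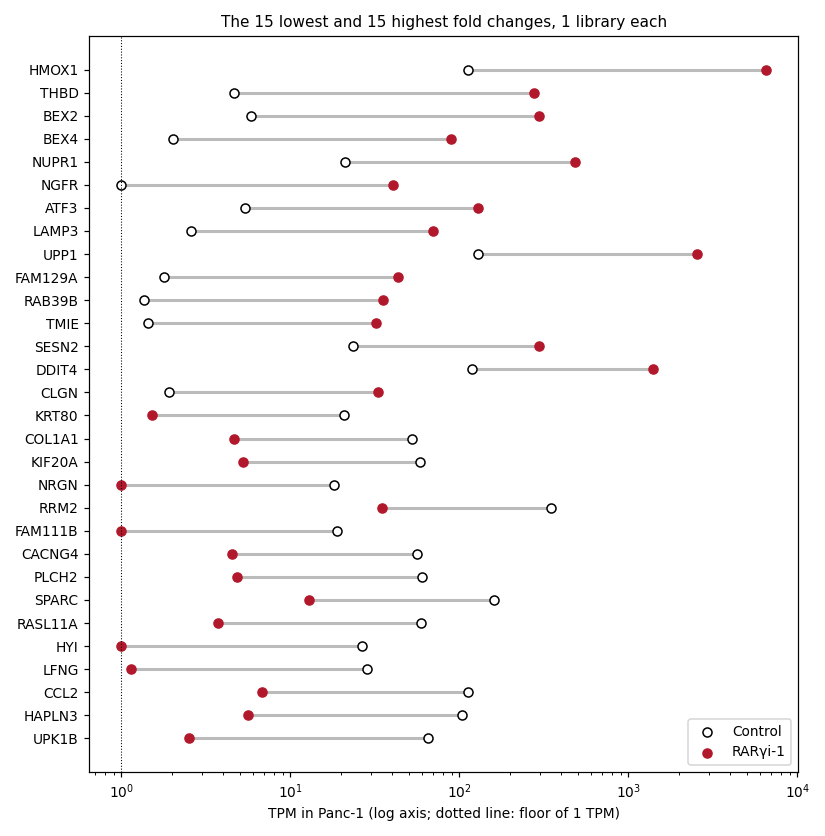
Open circles give the TPM in the Panc-1 Control library and red circles that in the Panc-1 RARγi-1 library, on a log axis whose dotted line is the floor, for the 15 highest and 15 lowest fold changes among members with at least 10 TPM in 1 library. HMOX1 reached 6518 TPM from 113.0 TPM, while HYI, FAM111B and NRGN lay at the floor with RARγi-1.

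The change with RARγi-1 in PK-1 cells was set beside that in Panc-1 cells; the cell lines have separate control libraries. In PK-1 cells 1292 of 13965 entries above the floor rose (9.25%) and 692 fell (4.96%). Of the 1036 that rose in Panc-1 cells 424 also rose in PK-1 cells, which is 40.9% of the Panc-1 entries and 32.8% of the PK-1 entries. Of the 845 that fell 287 also fell in PK-1 cells, 34.0% and 41.5% of the respective entries. Another 120 of the 845 were at the floor in both PK-1 libraries and could not fall there. The share in common was thus above the background of PK-1 cells in both directions, by counts from 1 library a side.

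Named groups differed between the lines in size and in direction, and these differences were not tested. The medians here are over the genes of a list above the floor in both lines. Mitosis had a median of -1.50 in Panc-1 cells and -1.51 in PK-1 cells, and ATF4 and CHOP effectors 2.55 and 2.19. Replication licensing and fork genes were at -1.15 and -1.59. The actin list had a median of -0.77 in Panc-1 cells and -0.21 in PK-1 cells, TGF-β targets of -1.36 and -0.19, and matrix genes of -0.41 and 0.36. Of the metallothionein list 4 genes lay above the floor in both lines, and MT1A, MT1E and MT1M, which fell in Panc-1 cells, were at the floor in PK-1 cells. MT2A had a log2 fold change of 0.67 in PK-1 cells. Among single genes, HMOX1 was at 17.8 TPM in the PK-1 control and 142 TPM with RARγi-1 (2.93), a smaller change than in Panc-1 cells. RARG was at 51.1 and 37.5 TPM there (-0.44). KRT13, the squamous keratin that was at the floor in Panc-1 cells, fell in PK-1 cells from 3457 to 655 TPM (-2.40).

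**Figure D5:**
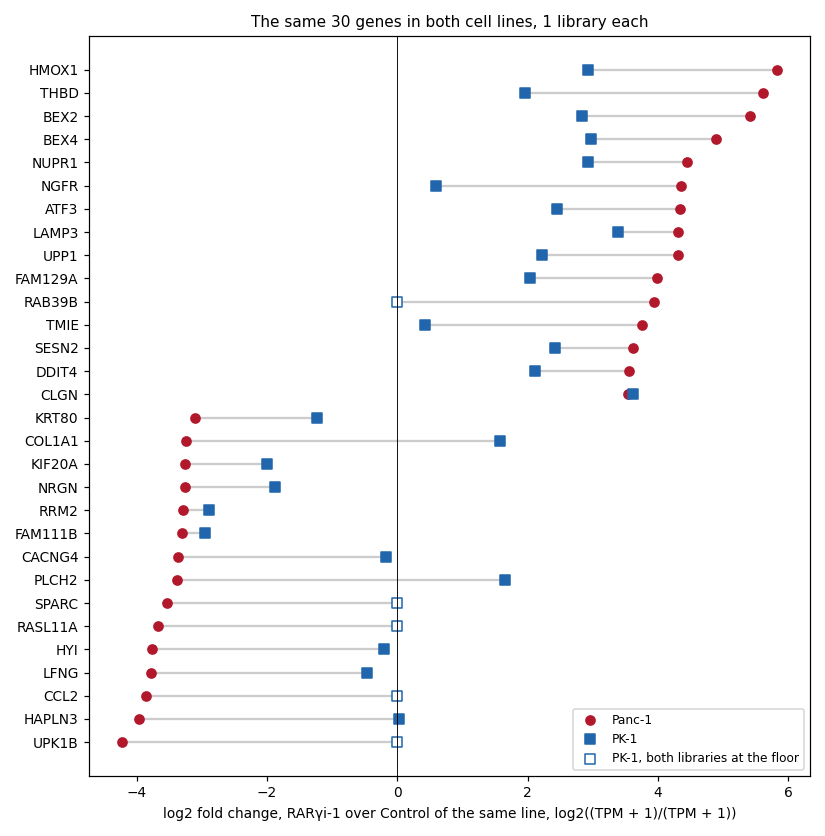
The x axis gives the log2 fold change, RARγi-1 over the Control of the same line, for the 30 genes with the highest and lowest folds in Panc-1; red circles are Panc-1, blue squares PK-1 and open squares genes at the floor in both PK-1 libraries. All 15 genes at the top are at or above 0 in PK-1, while COL1A1 (1.57) and PLCH2 (1.66) lie on opposite sides in the 2 lines.

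RARγi-2 was compared with the same Panc-1 control library, so that its fold changes share that library with those of RARγi-1. The doses are not stated for the RNA-seq, and the values are given side by side without a comparison. With RARγi-2, HMOX1 was at 8126 TPM, FTH1 at 18831 TPM, DDIT3 at 1070 TPM and HSPA5 at 5661 TPM. RRM2 was at 24.5 TPM, MKI67 at 9.19 TPM, E2F1 at 16.4 TPM, ACTB at 1314 TPM and RARG at 3.27 TPM. CDKN1A was at 204 TPM and NGFR at 12.9 TPM. The list medians were -2.10 for mitosis, 2.58 for ATF4 and CHOP effectors, 1.62 for the ER list and 0.72 for metallothioneins with RARγi-2, beside -1.50, 2.26, 0.94 and -1.18 with RARγi-1. MT2A was at 2192 TPM with RARγi-2.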

How the data were processed

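RNA-seq libraries were prepared by the authors from mRNA with a strand-specific kit, and the submitters' processing notes name the build hg38. The aligner, counting method, strand use and annotation are not given in the sources used here. Each library was deposited by the authors as a table of TPM on the log2 scale, 1 value per entry, with 1 TPM as the floor. These were put back on the linear scale in Python 3 with pandas, and fold changes were taken with a pseudocount of 1 TPM. The members, gene lists and thresholds were chosen with earlier results of these data known. Named by rule were the 15 highest and 15 lowest folds among members of at least 10 TPM in 1 library, the 10 largest gains and losses of TPM, genes central to the study, and the 3 highest and 3 lowest members of each list; every other gene was named for its role after its values were seen. A symbol with several entries was taken at its highest mean. Of the members, 99.6% had an Entrez ID in RefSeq, which served for current symbols and gene classes. Libraries were assigned by their titles, since a treatment entry of both RARγi-2 libraries reads RARγi-1. Scripts were tested on simulated data. The fold, the pseudocount, a minimum level and the scaling were varied. A few genes of the lists are counted but not reported here by name.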

Additional observations from a re-analysis of the deposited data

Results flagged for a closer look

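With RARγi-1, 4 of the named genes passed 2-fold in opposite directions in Panc-1 and PK-1 cells. With 1 library per condition the difference between the lines was not tested, and the values below are differences of log2 fold changes, Panc-1 minus PK-1. PLCH2, a phospholipase C, fell from 60.1 to 4.86 TPM in Panc-1 cells and rose from 9.83 to 33.2 TPM in PK-1 cells, a difference of -5.04. COL1A1, a collagen chain, fell from 52.4 to 4.65 TPM in Panc-1 cells and rose from 3.21 to 11.5 TPM in PK-1 cells, a difference of -4.81. CYP1B1, a monooxygenase induced through the AhR, fell from 60.2 to 25.6 TPM and rose from 3.44 to 19.0 TPM, a difference of -3.37. S100A3, a calcium-binding protein, fell from 30.7 to 11 TPM and rose from 15.8 to 36.1 TPM, a difference of -2.54. Over all members, 28 of the 845 that fell in Panc-1 cells rose in PK-1 cells, and 4 of the 1036 that rose in Panc-1 cells fell in PK-1 cells. Both are smaller shares than those over all PK-1 entries above the floor, of which 9.25% rose and 4.96% fell. AGR2, a secreted ER protein of mucous epithelia named after its values were seen, fell from 208 to 36.4 TPM in Panc-1 cells and rose from 445 to 3927 TPM in PK-1 cells.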

How the results depend on the processing

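The fold chosen as threshold set the counts most: 298 entries were more than 3-fold lower and 286 higher, and 1928 were more than 1.5-fold lower and 2698 higher. Without a pseudocount 1091 entries fell and 1449 rose, with 0.1 TPM 1060 and 1399. Asking for at least 10 TPM in 1 library left 668 and 775. Setting the median fold of entries with at least 5 TPM in both libraries to 0 shifted the RARγi-1 values by -0.07 (log2). With the pseudocount, folds moved by less at low levels. It gave 947 that fell and 892 that rose, so the larger group changed with this scaling. A scaling without the entries that resemble mitochondrial DNA, chosen after the data were seen, gave 878 and 992. No entry past 2-fold changed sign under the pseudocounts or the scaling. With the scaling, CYP26C1, BCL2L11, PHLDA3, MANF and SPRY4 no longer rose, which left 0 retinoid genes, 2 of apoptosis, 1 p53 target, 14 of the ER and 4 of MAPK feedback. The counts that fell went to 44 for mitosis, 31 for replication and 6, from 3, for the respiratory chain. Without a pseudocount and with 0.1 TPM, 12 repair genes fell in place of 6, 2 cytosolic chaperones rose in place of none, 2 genes of lipid synthesis rose in place of 1 and 2 mitochondrial ribosomal proteins fell in place of 1. Under both, 31 replication and 10 matrix genes fell in place of 29 and 8, and 8 AP-1 and immediate-early genes rose in place of 6. In G1-S control 14 and 13 fell in place of 11, and in the actin list 11 and 9 in place of 9. ZNF counts are given below, and further lists changed by less. Of the list medians, those of the esophagus genes (-1.41 at 10 TPM or more) and of WNT and Frizzled genes (-0.80 and -1.46 at 5 and 10 TPM or more) moved by more than the spread of folds over all members, 0.56. So did the folds of 16 named genes without a pseudocount and of 11 with 0.1 TPM. No paired analysis was possible because each condition has 1 library. Depth is unknown, no value has an error, and entries near the floor are limited by it.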

Other observations

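Gene families outside the lists above were looked at after their values had been seen. Host genes of small nucleolar RNAs, non-coding transcripts that are known to be degraded when translated, rose in 12 of 26 cases and fell in none, with a median log2 fold change of 0.89. GAS5 rose from 293 to 1681 TPM (2.52), ZFAS1 from 178 to 1013 TPM (2.50) and SNHG8 from 72.8 to 227 TPM (1.62), while SNHG16 was at 198 and 138 TPM. In PK-1 cells the median of the family was 0.18. Of 413 ZNF genes, most of them zinc finger repressors, 30 rose (7.26%), near the 7.40% of all members, and 2 fell. Without a pseudocount 50 rose, with 0.1 TPM 47, and among the 173 with at least 10 TPM in 1 library 17. The median was 0.33, and 307 lay above 0.

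Among 11 tubulins 3 fell and none rose. TUBB3, a neuronal β-tubulin, fell from 371 to 70.5 TPM (-2.38) and TUBB4B from 865 to 256 TPM (-1.75), whereas TUBB2B was at 55.6 and 91.8 TPM. The lamins LMNB1 (99.7 to 16.7 TPM, -2.51) and LMNA (515 to 191 TPM, -1.42) fell, and HMGA1, a chromatin protein, was at 1374 and 2081 TPM. Of 18 WNT ligands and Frizzled receptors 5 fell and none rose, WNT5B from 84.4 to 22.8 TPM (-1.84) and WNT7B from 86.3 to 25.5 TPM (-1.72). Of 50 RAB GTPases 6 rose (12%) and 1 fell (2%), beside 7.40% and 6.03% of all members. RAB43 rose from 7.89 to 59.3 TPM (2.76), and RAB26 fell from 14.4 to 1.76 TPM (-2.48).

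RPS16 and PSMC4 were far above PK-1 cells in both Panc-1 libraries, with RPS16 at 29221 and 27868 TPM and PSMC4 at 3841 and 3818 TPM, against 2471 and 202 TPM in the PK-1 control. The entry MIR6723, which resembles mitochondrial DNA, was at 25351 TPM in the Panc-1 control and 9737 TPM with RARγi-1, while MTRNR2L2, which resembles it too, was at 1846 and 3732 TPM.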
